A study of Mus musculus with 2116 samples.

Results

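Conventional CD4+ T cells of the mouse spleen that held transcripts of T cell receptor (TCR) response genes made up 9.40% (exact 95% interval 7.74% to 11.3%) of the 1096 usable cells of the conventional T cell library, in classes of 24, 30 and 49 cells described below. A cell was a member when it had at least 1000 unique molecular identifiers (UMIs, each marking 1 captured mRNA molecule), no UMI of Cd79a, Lyz1 or C1qa, and at least 2 UMIs summed over 10 genes, which were Nr4a1, Nr4a3, Egr1, Egr2, Egr3, Cd69, Myc, Nfkbid, Irf4 and Cd83. Members were thus chosen by their UMIs of these 10 genes, and the levels of these genes are given as a description. The comparison cells were the 883 cells of the same library that passed the same filters with 0 such UMIs, and 110 cells with exactly 1 such UMI lay between. The filters kept 1096 of the 1300 cells of the library, in a series of 2116 cells.

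The cells came from the spleens of male B6 Foxp3-Ires-Gfp mice aged 8 months, in which green fluorescent protein reports the transcription of Foxp3, the factor that defines regulatory T cells. Cells sorted as live, TCR beta positive and CD4 positive were captured in droplets with inDrops, a method that counts UMIs per gene and cell. The series holds 1 library of conventional T cells (Tconv, sample type spleen_tc_rep1a) and 1 of regulatory T cells (Treg, spleen_tr_rep1a, 816 cells). No treatment is given for either. The series names the Tconv cells as FoxP3-, while the one gate written in the labels ends in GFP+, and neither animals nor replicates are named.

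With 1 library there is no replicate check, and cells are not replicates, so no p-value was computed. Intervals are 95% intervals that cover counting error only. They assume independent UMIs and are too narrow, since 18.3% of detections of 7491 rarely detected genes held at least 2 UMIs, against 4.77% for independent counts. The members summed to 188991 UMIs and the comparison cells to 1433822. Members had a median of 1693 UMIs (1034 to 4911) and comparison cells a median of 1570 UMIs (1002 to 4401). The Foxp3 transcript had 1 UMI in the members and 4 in the comparison cells. Of the cell barcodes, 12 occurred in both libraries.

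A T cell that meets its antigen switches on immediate early genes within a short time. Among them are the orphan nuclear receptors of the Nr4a family, the zinc finger factors of the Egr family and the surface lectin Cd69, which holds T cells in lymphoid tissue. Myc, which drives ribosome production and cell growth, is induced by TCR and cytokine signals and is also held at low levels by other inputs. Negative regulators, such as phosphatases that switch off MAP kinases and inhibitors of NF-kB, are induced in the same response and limit it.

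The members were not uniform in the genes that chose them. Myc alone placed 49 members (47.6%), with no UMI of any other rule gene. In all, 72 members (69.9%) held UMIs of a single rule gene, 31 (30.1%) of at least 2, and 10 (9.71%) of at least 3. A UMI of Nr4a1, Nr4a3, Egr1 or Egr2 was present in 24 members (23.3%). The remaining 30 members held neither such a UMI nor Myc as their one rule gene, and 22 of these 30 held Cd69. Of the markers given for the set, Nr4a1, Egr1, Egr2, Cd69, Myc and Cd83, most members thus held a single one, and Cd83 was found in 2 members. As these genes chose the members, their UMIs do not test the name of the set.

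Myc was found in 63 members (61.2%), of which 59 held at least 2 of its UMIs. Cd69 had 69 UMIs in 31 members. Egr1, a transcription factor gene switched on by MAP kinase signalling, had 57 UMIs in 18 members. Nr4a1 (Nur77), which follows TCR signal strength in mouse T cells, had 46 UMIs in 12 members. These 4 genes carried most of the 444 rule-gene UMIs of the members, and the other 6 were rarer. Egr2, which restrains activated T cells, had 25 UMIs in 12 members, and Nfkbid, a nuclear regulator of NF-kB, had 24 UMIs in 15. The least detected were Irf4 with 7 UMIs in 3 members, Cd83 with 3 in 2 and Nr4a3 with 1 in 1, and Egr3 was at 0. The rule genes were 0.235% of all UMIs of the members.

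**Figure D1:**
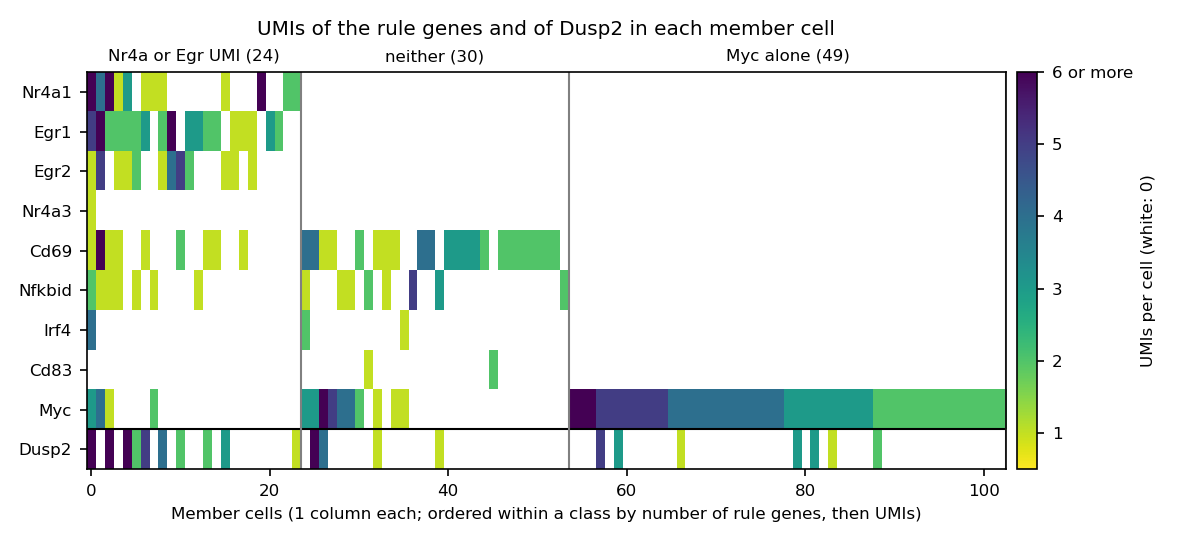
UMIs of each rule gene (rows; Egr3, at 0, is not drawn) and of Dusp2, which the rule did not use, in each member cell (columns), with the 24 members holding an Nr4a or Egr UMI on the left, the 30 in neither other class in the middle and the 49 with Myc alone on the right. Nr4a1, Egr1 and Egr2 share cells at the left edge, and Dusp2 has UMIs in 10 of the 24, 4 of the 30 and 7 of the 49 members.

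A few cells held many of these transcripts at once. The member with the most held 34 rule-gene UMIs of its 1284 UMIs, with 11 of Egr1, 9 of Cd69, 5 of Egr2 and 4 each of Nr4a1 and Myc. The next held 31 rule-gene UMIs of 8 rule genes, with 14 of Nr4a1 and 5 of Egr1. Most members sat far below these cells, with a median of 3 rule-gene UMIs, and 36 members held exactly 2. The deepest member, with 4911 UMIs, held 4 rule-gene UMIs.

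Whether the rule genes share cells was examined over all 1096 cells that passed the filters, which the rule does not fix. Nr4a1, Egr1 and Egr2 shared cells. Of the 17 cells with Nr4a1, 41.2% (7 cells) also held Egr1, against 2.22% of the 1079 cells without Nr4a1. Of the 14 cells with Egr2, 71.4% held Egr1, against 1.94% of the 1082 cells without Egr2. Cd69 was found in 25.8% of the 31 cells with Egr1 and in 4.69% of those without, and none of these 3 pairs of intervals overlapped. For Myc the shares depended on the partner, and all 5 pairs of intervals overlapped. Egr1 was found in 2.73% of the 110 cells with Myc and in 2.84% of the 986 cells without, and Egr2 in 1.82% and 1.22%. Nr4a1 was found in 3.64% of cells with Myc and 1.32% of cells without, Cd69 in 9.09% and 4.87%, and Nfkbid in 6.36% and 2.13%. With every cell thinned to 1000 UMIs, Egr1 was found in 46.7% of cells with Nr4a1 and 1.20% of cells without, and in 2.22% of cells with Myc and 1.79% of cells without. Nfkbid was then found in 0 of the 90 cells with Myc and 1.59% of cells without.

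In the Treg library Egr1 was found in 34.5% of cells with Nr4a1 and 3.62% of cells without, and in 5.88% of cells with Myc and 4.79% of cells without. Nfkbid there was found in 13.7% (5.70% to 26.3%) of cells with Myc and 3.74% (2.44% to 5.48%) of cells without, and in 15.4% and 1.62% of thinned cells. No cell type that lacks these genes was present in number, so the share due to free RNA in the droplets was not measured. As a measured case, every UMI of Jchain, an abundant plasma cell transcript, that the comparison cells held was in 3 cells, and the members held none.

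**Figure D2:**
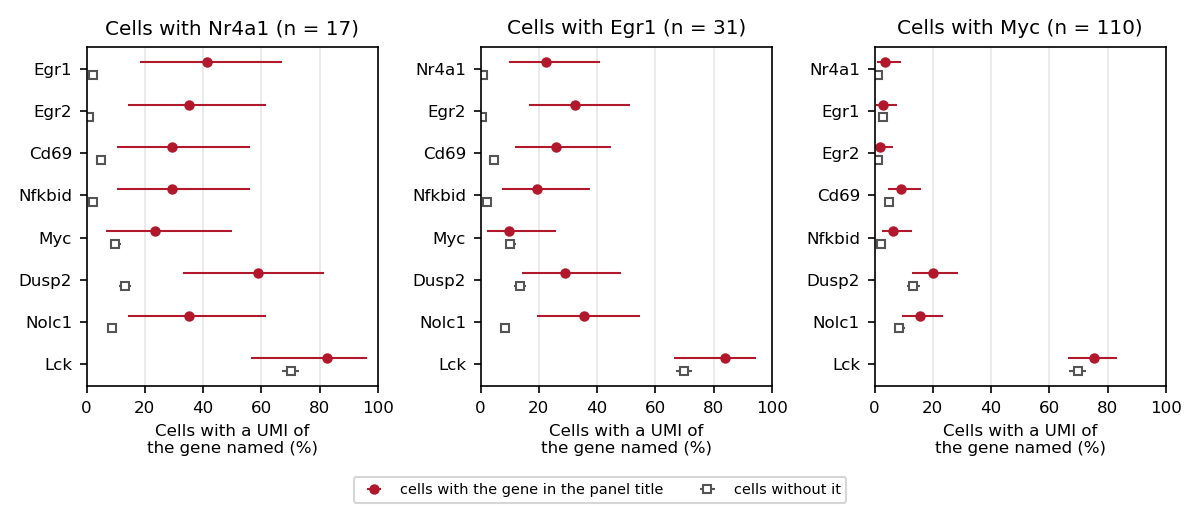
Share of Tconv cells with a UMI of the gene named on the vertical axis, among cells with (filled circles) and without (open squares) a UMI of Nr4a1, Egr1 or Myc, over all 1096 passing cells; bars are exact 95% intervals. Egr1 is found in 41.2% of cells with Nr4a1 and 2.22% of cells without, while its share is 2.73% and 2.84% in cells with and without Myc.

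All other genes were compared as UMIs per 1000000 (CPM) of the summed UMIs outside the 10 rule genes, for 4317 genes with at least 50 UMIs in members and comparison cells together. At least 2-fold higher in members were 2.69% of these genes, and 6.76% were at least 2-fold lower. Counts of list genes past 2-fold, given below, are to be read beside these shares. The median log2 ratio was -0.01. With TMM factors the median of all genes was lower by 0.11 (-0.11 on the log2 scale), and genes on the higher side made up 16.8% of the genes past 2-fold, against 28.4% without them. Ratios below are without TMM factors.

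The MAP kinase phosphatase Dusp2 was higher in members of both libraries. Dusp2, a nuclear phosphatase that switches off MAP kinases and is induced in activated lymphocytes, had 88 UMIs in 21 members and was found in 110 comparison cells. Its level was 466.7 CPM in members and 177.8 CPM in comparison cells, a log2 ratio of 1.39 (1.03 to 1.75). In the Treg library, by the same rule, its log2 ratio was 1.28 (1.04 to 1.51). A UMI of Dusp2 was found in 20.4% of members and 12.5% of comparison cells (medians of 1693 and 1570 UMIs), so members with Dusp2 also held more UMIs of it. Of the 7 phosphatase genes listed, 2 were measured and 1 was at least 2-fold higher, where 2.69% of all genes were. The other measured one was Dusp10, which acts on p38 and JNK, at 0.65 (-0.30 to 1.49).

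The stretch upstream of the start of Dusp2, Nr4a1 and Egr2 is shown because their transcripts shared cells, in pairs chosen after their values were seen. A UMI of Dusp2 was found in 58.8% (10) of the 17 cells with Nr4a1 and in 13.2% of those without, and in 7 of the 14 cells with Egr2 and 13.4% of those without. Each stretch is 250 bases on the plus strand of GRCm38.p6 from RefSeq, at chr2:127335909-127336158 for Dusp2, chr15:101266596-101266845 for Nr4a1 and chr10:67535249-67535498 for Egr2, where the table has 5 starts and the one nearest the annotated gene start was used. Capitals mark matches, on either strand, to an EGR site (GCGNGGGCG) or a CRE core (TGACG).
Dusp2: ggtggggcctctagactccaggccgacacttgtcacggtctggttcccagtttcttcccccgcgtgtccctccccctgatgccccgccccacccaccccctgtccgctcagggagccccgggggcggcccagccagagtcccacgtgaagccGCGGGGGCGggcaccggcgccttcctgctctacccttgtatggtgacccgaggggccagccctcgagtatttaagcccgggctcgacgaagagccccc
Nr4a1: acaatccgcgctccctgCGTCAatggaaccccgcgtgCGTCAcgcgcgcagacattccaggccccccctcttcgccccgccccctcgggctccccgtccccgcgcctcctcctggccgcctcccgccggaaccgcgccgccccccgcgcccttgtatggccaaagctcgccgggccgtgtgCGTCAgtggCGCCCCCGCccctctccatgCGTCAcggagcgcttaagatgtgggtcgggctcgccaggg
Egr2: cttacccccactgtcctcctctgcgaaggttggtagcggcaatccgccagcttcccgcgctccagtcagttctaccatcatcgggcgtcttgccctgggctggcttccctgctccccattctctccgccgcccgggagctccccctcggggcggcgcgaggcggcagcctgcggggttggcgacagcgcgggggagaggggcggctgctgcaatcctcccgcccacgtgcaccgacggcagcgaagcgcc
The stretches of Dusp2 and Nr4a1 hold 1 EGR site each, and that of Nr4a1 also holds 4 CRE cores, with no match overlapping another. The Egr2 stretch holds no match. An EGR site is found in 4.70% and a CRE core in 17.8% of the 32841 promoters in the RefSeq table over the same length. None of the 3 held an exact match to an AP-1 site (TGANTCA, in 6.75% of promoters) or a CArG box (CCWWWWWWGG with W for A or T, in 1.47%). Near matches were not searched. The Dusp2 and Nr4a1 stretches each hold ccttgtatgg, which departs from the CArG pattern at 1 base.

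The other TCR-induced genes, a list of 38 without the rule genes, summed to 1724 CPM in members and 1343 CPM in comparison cells, a log2 ratio of 0.36 (0.19 to 0.53). Single members held 0 to 17 of their UMIs and single comparison cells 0 to 12, with a median of 2 in both, so the sets overlapped widely. Of the 15 measured, 3 were at least 2-fold higher and 1 lower, with a median log2 ratio of 0.50 beside -0.01 over all genes. The shares over all genes were 2.69% higher and 6.76% lower. The 3 were Socs1, a suppressor of cytokine signalling, at 1.16 (0.28 to 1.96), Ptger4, a prostaglandin E2 receptor, at 1.11 (0.17 to 1.95), and Orai1, the pore of the calcium channel opened by the TCR, at 1.01 (0.01 to 1.92). Tagap, which is induced in activated T cells, had 23 UMIs in 13 members and 93 UMIs in 74 comparison cells, at 0.91 (0.18 to 1.58). Zfp36l1, which destabilises mRNA with AU-rich elements, was at 0.79 (0.33 to 1.23). The exception was Pim1, a kinase induced by cytokines through STAT5, at 53.04 CPM in members and 145.1 CPM in comparison cells, with a ratio of -1.45 (-2.53 to -0.54).

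Among AP-1 and immediate early genes, 9 of 22 were measured and none was past 2-fold in either direction, with a median of 0.17. Zfp36 (tristetraprolin), which limits cytokine mRNA, was at 259.9 CPM in members and 133.9 CPM in comparison cells, a ratio of 0.96 (0.47 to 1.42). Ier2, an immediate early gene, was at 0.64 (0.11 to 1.15). Junb and Jund were at 0.17 and 0.20, with intervals that included 0, and Fos had 2 UMIs in the members.

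Of 8 measured NF-kB genes 0 were past 2-fold lower (6.76% of all genes) and 1 was past 2-fold higher (2.69% of all genes). This was Nfkb1, which encodes the p105 precursor of p50, at 376.6 CPM in members and 186.9 CPM in comparison cells, with a log2 ratio of 1.01 (0.61 to 1.39). Nfkbia, the inhibitor that NF-kB itself induces, was at 0.52 (0.12 to 0.91). Both were at 0.85 by the same rule in the Treg library.

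Of 14 measured negative regulators of TCR signalling, 1 was at least 2-fold higher and 1 lower, beside 2.69% and 6.76% of all genes. Ndfip1, an adaptor for Itch-type ubiquitin ligases, was at 1.10 (0.09 to 2.02). Ptpn6, the phosphatase SHP-1, had 52 UMIs in 30 members and was at 275.8 CPM in members and 139.5 CPM in comparison cells, a ratio of 0.98 (0.51 to 1.43). Btla, an inhibitory receptor, was at 0.93 (0.07 to 1.71), with 41.2% of its member UMIs in 1 cell. The lower one was Ptpn22, a phosphatase that restrains Lck, at -1.09 on 5 member UMIs.

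The receptor complex and its near signalling genes were close to the comparison cells. Their summed log2 ratio was 0.06 (-0.02 to 0.14). Past 2-fold higher were 0 of 24 measured and past 2-fold lower 2, beside 2.69% and 6.76% of all genes. Lck, the kinase that starts TCR signalling, was at 0.19 (0.00 to 0.38). Lcp2 (SLP-76) and Nfatc1, the calcium-regulated factor, were at 0.71 (0.08 to 1.30) and 0.68 (0.04 to 1.28). Vav1, an exchange factor below the TCR, was at -1.72 (-3.62 to -0.32), with 4 UMIs in members and 100 in comparison cells, and Themis, which acts in T cell selection in the thymus, was the other lower gene, at -1.04 on 3 member UMIs.

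Growth and nucleolar genes summed to 7823 CPM in members and 6778 CPM in comparison cells, a log2 ratio of 0.21 (0.13 to 0.29). Of 37 measured, 2 were at least 2-fold higher and 2 lower, beside 2.69% and 6.76% of all genes. Nolc1, a nucleolar phosphoprotein of ribosome production, had 30 UMIs in 23 members and 83 in 67 comparison cells, at 1.46 (0.81 to 2.08). Cct8, a subunit of the cytosolic chaperonin, was at 1.06 (0.51 to 1.58). Eif5a, a translation factor, was at 0.52 (0.24 to 0.78). Slc3a2, the heavy chain of the CD98 amino acid transporter, was at -1.56 (-3.21 to -0.29), and Slc7a1, a cationic amino acid transporter, at -1.19 on 3 member UMIs. Ribosomal protein genes, which took a large share of all UMIs, were at -0.04 (-0.06 to -0.03).

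Glycolysis and proliferation genes had none past 2-fold, in 10 measured of each list. Their summed ratios were both 0.16, but that of the proliferation genes was -0.080 in cells thinned to 1000 UMIs, and that of the glycolysis genes was -0.00899 without cells with markers of other types. Pkm and Gapdh, glycolytic enzymes, were at 0.46 (0.11 to 0.80) and 0.44 (0.07 to 0.80). Pcna, the replication clamp, was at 0.68 (0.32 to 1.02) and H2afz, a histone variant, at 0.63 (0.24 to 1.01), while Tubb5, a tubulin, was at -0.52 (-0.85 to -0.20). Heat shock genes were at 0.18 (0.04 to 0.31), with the endoplasmic reticulum chaperone Hspa5 at 0.71 (0.32 to 1.09) and Hsp90ab1 at 0.43 (0.19 to 0.67).

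Genes of resting T cells were close to the comparison cells as a group, at -0.02 (-0.10 to 0.06) with 0 of 24 measured past 2-fold in either direction. Ccr7, the lymph node homing receptor, was at -0.54 (-0.92 to -0.17). Txnip, an arrestin-like inhibitor of glucose uptake, was at -0.52 (-0.90 to -0.16) and Klf2, which keeps T cells in circulation, at -0.50 (-0.89 to -0.12). On the other side were Igfbp4, a binding protein for insulin-like growth factors, at 0.40 (0.17 to 0.62) and Pdlim1, a cytoskeletal adaptor, at 0.64 (0.15 to 1.10). The sign of Igfbp4 turned with Myc left out of the rule, at -0.18, and that of Pdlim1 with at least 2 different rule genes required, at -0.20. In the Treg library the same list was at -0.58 (-0.68 to -0.48). Effector or memory genes were at 0.05 (-0.02 to 0.13), with the adhesion receptor Cd44 at -2.07 (-5.15 to -0.16) on 2 member UMIs, Itgb2, an integrin chain, at 0.47 (0.18 to 0.75) and Emp3 at -0.43 (-0.81 to -0.08). Among genes of other lists, Stat6, the factor below the interleukin 4 receptor, was at 0.69 (0.08 to 1.26). The interferon-induced genes Ifi47 and Ly6a were at 0.49 (0.16 to 0.81) and -0.39 (-0.74 to -0.06), in a list at 0.02 (-0.09 to 0.12) with 0 of 22 measured past 2-fold higher and 1 lower, Rtp4, at -1.24 on 5 member UMIs. In the following lists no measured gene was past 2-fold in either direction, and the summed log2 ratios also cover genes under 50 UMIs. Survival and death genes (8 measured) were at 0.25 (0.08 to 0.41). Follicular helper and anergy genes (6) were at 0.19 (-0.11 to 0.47) and helper lineage factors (6) at -0.01 (-0.31 to 0.27). Treg signature genes (2, with a median of 0.05) were at 0.38 (0.04 to 0.71), with 24.2% of their member UMIs in 1 cell. Helper cytokines were at 0.41 (0.17 to 0.64), and the 1 measured was at 0.20.

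Of the 14 genes with the highest interval bound, among measured genes with UMIs in at least 5 members, several lay outside these lists. This filter favours genes found in more members, so the ranks are a description. Pgam5, a mitochondrial phosphatase, had 31 UMIs in 11 members and 61 in 32 comparison cells, a log2 ratio of 1.95 (1.28 to 2.60), and was at -1.32 with at least 2 different rule genes required. Hs6st1, a heparan sulfate sulfotransferase, was at 1.89 (0.99 to 2.74). Rilpl2 was at 1.73 (1.02 to 2.40), with 44.4% of its member UMIs in 1 cell. Fasn, the fatty acid synthase, had 24 UMIs in 18 members and 63 in 59 comparison cells, at 1.53 (0.79 to 2.23). Rap1a, a small GTPase that activates integrins, had 64 UMIs in 28 members and was at 339.4 CPM in members and 158.3 CPM in comparison cells, a ratio of 1.10 (0.68 to 1.51). S100a6, a calcium-binding protein, was at 1.80 (1.17 to 2.41) with 41.2% of its member UMIs in 1 cell, and at -0.61 without the cells above 2 times the median UMIs. The others were Tmem254a, 2700029M09Rik, Trappc8, Snx12, Trmt6 and Crlf2, at log2 ratios of 1.45 to 1.66, and Nolc1 and Dusp2 above.

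The 10 lowest genes, among measured genes with UMIs in at least 10 comparison cells, had few or no UMIs in the members. Hbp1, an HMG-box repressor that restrains the cell cycle, had 3 UMIs in members and was found in 92 comparison cells, with a ratio of -3.18 (-5.47 to -1.61). Ndufv1, a complex I subunit, Nfs1, which supplies sulfur to iron-sulfur clusters, Trim44 and 1110059G10Rik had 0 UMIs in members and 62, 61, 57 and 55 in comparison cells. Against a floor of 3 UMIs over the members, their log2 ratios were at most -1.44, -1.42, -1.32 and -1.27. Plp2, Arl5c and Tapt1 were at -2.22, -2.19 and -2.37. Nipbl, which loads cohesin, was at -1.92 (-3.39 to -0.77), and Eif2ak1, a kinase that halts translation when heme is short, at -3.20 with 1 UMI in the members. In the Treg library Hbp1 was at 0.01. Only 5 of the 10 lowest genes were measured there, and 11 of the 14 highest. None of the 10 had an interval below 0 in Treg and 1 had one above 0. Of the 14 highest, 5 had an interval above 0 in Treg and 2 had one below 0.

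**Figure D3:**
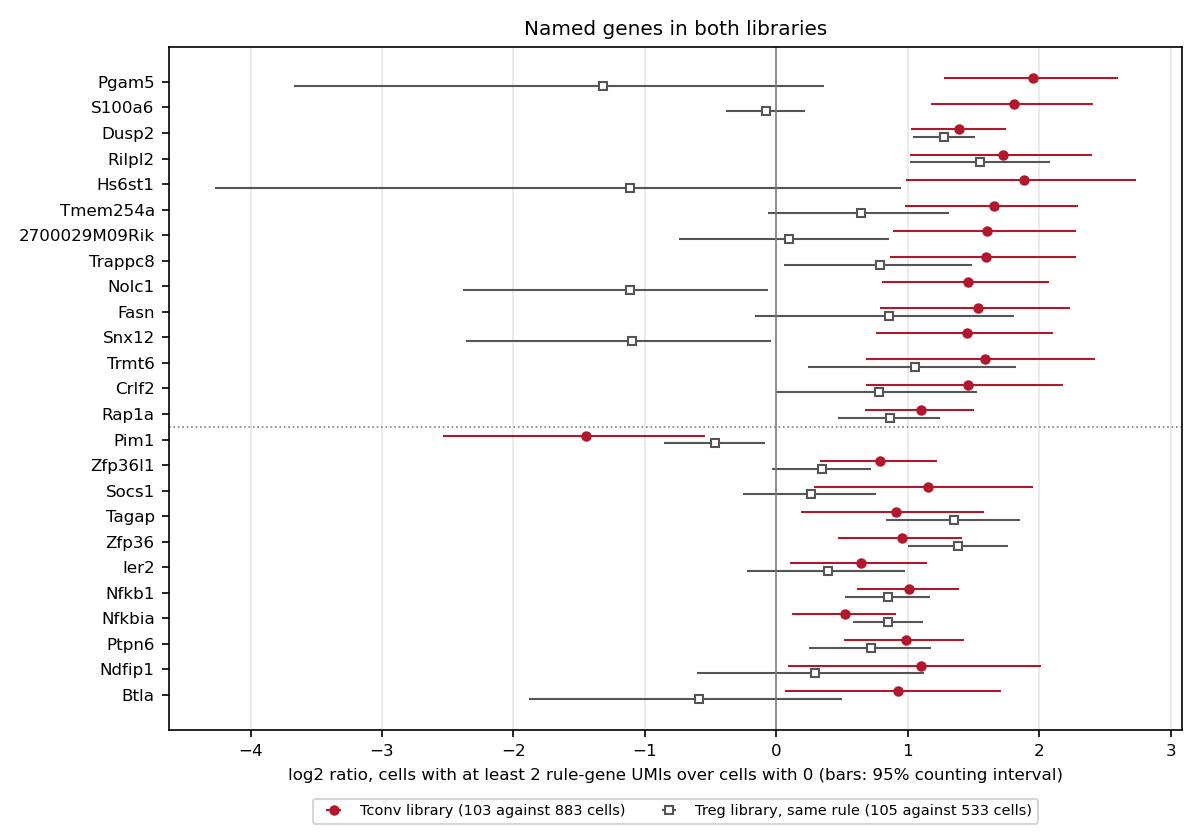
Log2 ratio of CPM between cells with at least 2 and with 0 rule-gene UMIs, for the 14 highest genes (above the dotted line) and genes named from the TCR response, NF-kB and negative regulator lists (below it), in the Tconv library (filled) and the Treg library (open); bars are 95% counting intervals. Dusp2, Nfkb1, Zfp36, Tagap, Rilpl2 and Rap1a lie above 0 in both libraries, while Nolc1 and Snx12 lie on opposite sides.

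The Treg library gives the same genes in cells that the Tconv members do not include. There 14.6% (12.1% to 17.4%) of 719 passing cells met the rule, against 533 cells with 0 rule-gene UMIs. These sets had medians of 2122 and 1692 UMIs, and the Treg ratios were not matched for depth. In the 3515 genes measured in both libraries, 76 were at least 2-fold higher in Tconv members, and 50 of these (65.8%) were above 0 in the Treg library, where 48.6% of all these genes were. In the Treg comparison as a whole 3.92% of 3772 genes were at least 2-fold higher and 7.64% lower. Past 2-fold higher in both libraries were Dusp2, Rilpl2, Trmt6, a tRNA methyltransferase subunit, and Orai1. These 4 were 5.26% of the 76, while 3.41% of all genes were past 2-fold higher in Treg. They were 3.33% of the 120 genes past 2-fold in Treg, to be set beside the 76 of 3515 genes in Tconv. On the lower side 33 genes were past 2-fold in both, 17.4% of those in Tconv and 13.3% of those in Treg, with 7.08% of all genes past 2-fold lower in Treg.

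Genes under 50 UMIs were not counted above, and those named here were chosen after their values were seen. The first 5 were picked from 16 genes with an interval above 2-fold, out of 685 with UMIs in at least 5 members. That filter on the members favours genes high in them, so their ratios are a description. Some others of the 16 were not higher in Treg. H2-Q5 was at -0.61 (-2.14 to 0.64) there, and B930041F14Rik had no UMI in the Treg cells that met the rule. Nab2, a corepressor that binds Egr proteins and is induced by them, had 16 UMIs in 9 members and 21 UMIs in 19 comparison cells, a log2 ratio of 2.53 (1.499 to 3.54). In the Treg library it was at 1.49 (0.62 to 2.34). Tnf, the cytokine tumour necrosis factor, had 17 UMIs in 7 members and 14 in 8 comparison cells, at 3.21 (2.10 to 4.34), and 1.43 (0.19 to 2.60) in Treg. Batf, an AP-1 factor of activated T cells, had 14 UMIs in 13 members and 25 in 24 comparison cells, at 2.09 (1.03 to 3.09), and 1.19 (0.24 to 2.08) in Treg. Irf8, an interferon regulatory factor, had 12 UMIs in 6 members and 5 in 5 comparison cells, at 4.19 (2.58 to 6.05), and 0.43 (-0.60 to 1.36) in Treg. S1pr2, a receptor for sphingosine 1-phosphate, was at 2.93 (1.64 to 4.21). From the gene lists, without that filter, Fasl, the death ligand, had 9 UMIs in 4 members and 4 in comparison cells. Il2 was at 0 in both sets of cells, and Ifng had no UMI in members and 1 in comparison cells.

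The classes of members differed in what else they held. The 24 members with an Nr4a or Egr UMI had a median of 1860 UMIs and the 49 with Myc alone a median of 1646. Both are compared with the same 883 cells, so their values stand side by side. In the first class 10.4% of 3726 genes were at least 2-fold higher and 14.4% lower, and in the second 4.86% and 12.8% of 4113 genes. These shares are above those of the whole set, on smaller sums.

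Other TCR-induced genes were at 0.83 (0.54 to 1.11) in members with an Nr4a or Egr UMI and at -0.05 (-0.34 to 0.22) in members with Myc alone. AP-1 and immediate early genes were at 0.73 (0.51 to 0.94) and -0.13 (-0.35 to 0.08), and MAP kinase phosphatases at 2.32 (1.90 to 2.73) and 0.34 (-0.27 to 0.89). In each of these 3 lists the intervals of the classes did not overlap. They assume independent UMIs and are too narrow, and no difference between the classes was tested. Dusp2 alone had 52 UMIs in 10 of the 24 cells, 1121 CPM, and 18 UMIs in 7 of the 49 cells, 202.6 CPM. Of its 52 UMIs, 14 (26.9%) were in 1 cell and 13 in another. Nfatc1 had 17 UMIs in 6 of the 24 cells and none in the 49 cells. Tagap was at 2.11 (1.15 to 2.96) with an Nr4a or Egr UMI and 0.06 (-1.42 to 1.23) with Myc alone, Zfp36 at 1.69 (0.94 to 2.35) and 0.43 (-0.41 to 1.16), and Zfp36l1 at 1.48 (0.76 to 2.12) and 0.47 (-0.27 to 1.13).

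**Figure D4:**
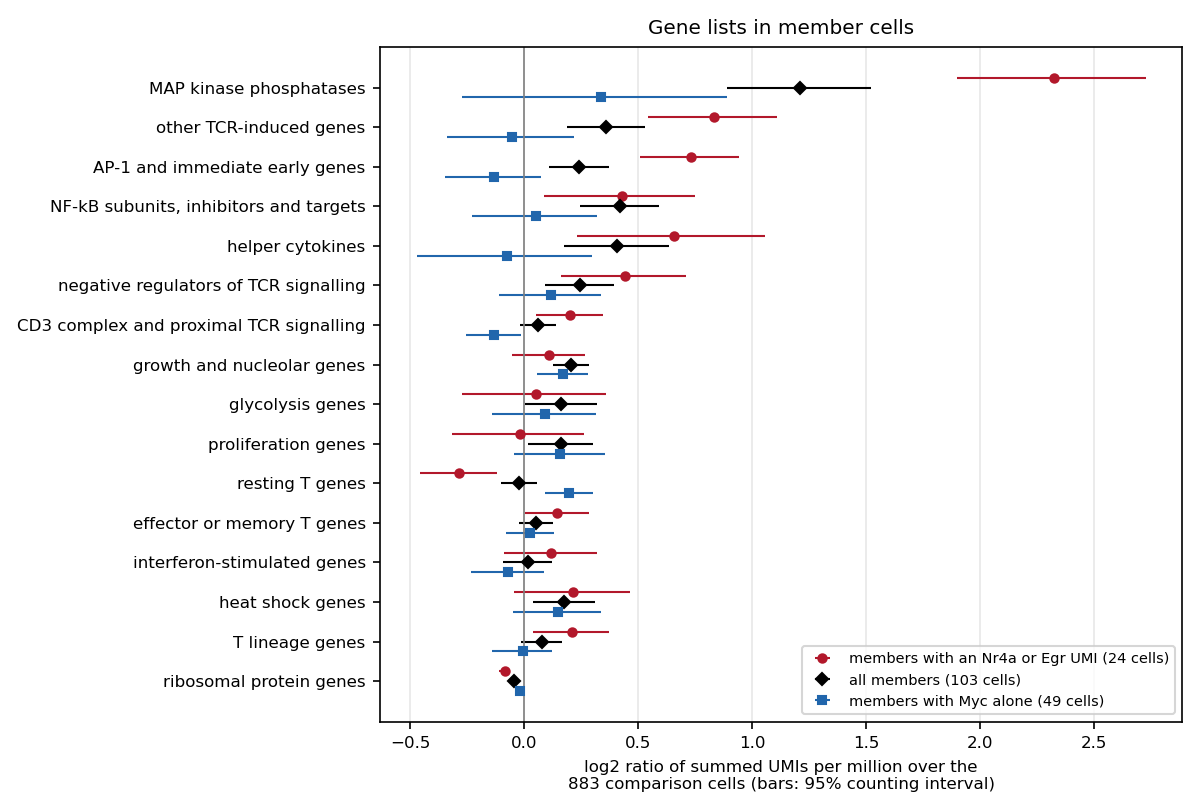
Log2 ratio of summed CPM over the 883 comparison cells for 16 gene lists, in the 24 members with an Nr4a or Egr UMI (circles), all members (diamonds) and the 49 members with Myc alone (squares); bars are 95% counting intervals. MAP kinase phosphatases, other TCR-induced genes and AP-1 genes lie above 0 in the first class, at 2.32, 0.83 and 0.73, and have intervals that include 0 in the last.

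Resting T genes parted the same classes, at -0.28 (-0.46 to -0.12) with an Nr4a or Egr UMI and 0.20 (0.09 to 0.30) with Myc alone. Ccr7 was at -1.41 (-2.54 to -0.48) in the first class and -0.43 (-0.97 to 0.07) in the second. Igfbp4 was at -0.22 (-0.79 to 0.29) in the first and 0.82 (0.53 to 1.09) in the second. Growth and nucleolar genes had overlapping intervals, at 0.11 (-0.05 to 0.26) and 0.17 (0.05 to 0.28). Members with Myc alone held Pgam5 at 2.33 (1.504 to 3.09), Fasn at 1.94 (1.02 to 2.77), Cct8 at 1.32 (0.60 to 1.98) and Eif5a at 0.63 (0.25 to 0.98). In members with an Nr4a or Egr UMI these 4 genes had intervals that included 0, on 1, 3, 4 and 18 UMIs. Nolc1 and Ptpn6 were higher in both classes, at 2.16 and 1.34 for Nolc1 and at 1.01 and 1.12 for Ptpn6.

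Cells just outside the threshold were close to those just inside it for some genes and not for others. Nolc1 was at 57.9, 117.05, 151.96 and 162.9 CPM in cells with 0, 1, 2 and at least 3 rule-gene UMIs, and Nfkb1 at 186.9, 268.2, 334.3 and 399.2 CPM. Other TCR-induced genes were at 1343, 1566, 1687 and 1744 CPM. Dusp2 had no such order, at 177.8, 477.9, 106.4 and 659.9 CPM. It had 98 UMIs in 21 of the 110 cells with 1 rule-gene UMI and 7 UMIs in 4 of the 36 cells with 2. Growth genes, at 6778, 8179, 6914 and 8310 CPM, and resting T genes, at 7768, 6872, 6899 and 8041 CPM, had none either.

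**Figure D5:**
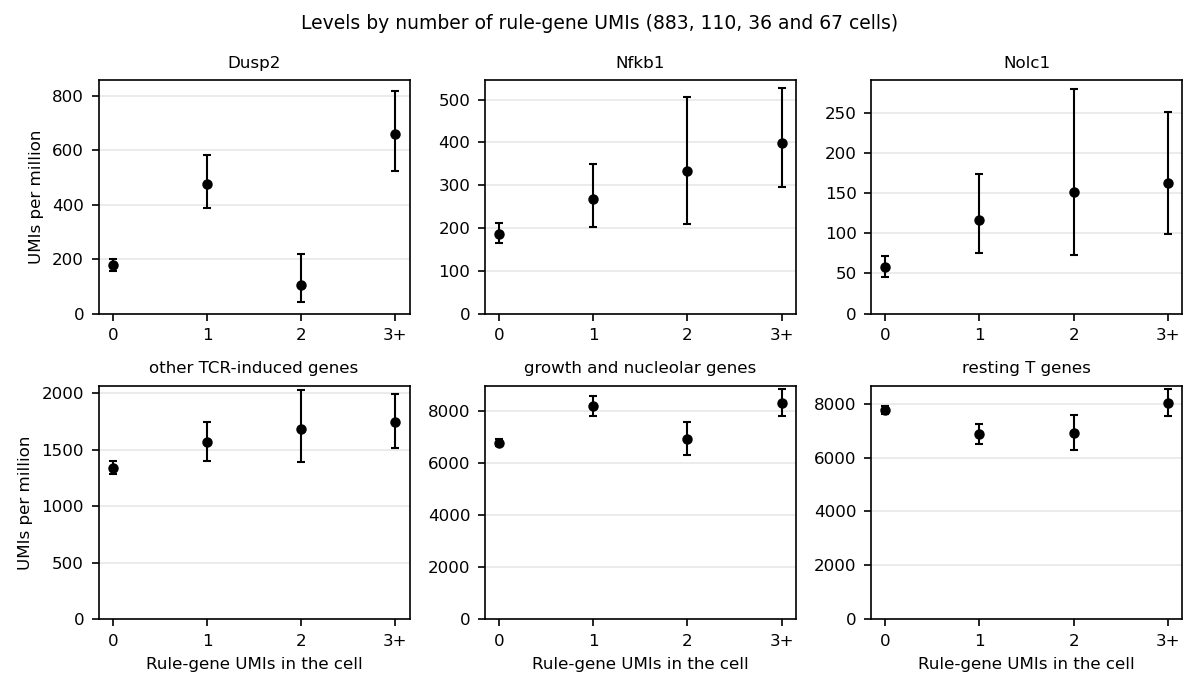
Level in UMIs per 1000000 (CPM) of 3 genes and 3 gene lists in Tconv cells with 0, 1, 2 and at least 3 rule-gene UMIs (883, 110, 36 and 67 cells); bars are 95% Poisson intervals and all axes start at 0. Nolc1 and Nfkb1 are ordered by class, while Dusp2 is at 477.9 CPM in cells with 1 rule-gene UMI and 106.4 CPM in cells with 2.

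Markers of other cell types were sparse in the members. T lineage genes were at 0.08 (-0.01 to 0.17). B cell markers had 10 UMIs in members, 7 of them H2-Eb1 in 1 cell, and 77 in comparison cells, with 13 of 16 at 0 in members, Ms4a1 among them. Myeloid markers were at 90.2 CPM in members and 87.2 CPM in comparison cells, with 15 of 18 at 0 in members, Lyz2 and Csf1r among them. CD8 or NK markers were at 100.8 CPM in members and 92.8 CPM in comparison cells, innate-like T markers at 90.2 and 80.9 CPM, and plasma cell markers at 21.2 and 314.5 CPM. Platelet markers had 0 UMIs in members and 3 in comparison cells. Erythroid markers were 10 UMIs of Car2 in 3 members and 5 UMIs in comparison cells, with no hemoglobin UMI in members. Plasmacytoid dendritic markers were at 323.5 CPM in members and 253.2 CPM in comparison cells, a log2 ratio of 0.35 (-0.06 to 0.75), and they were at 0.84 (0.13 to 1.47) in the members with an Nr4a or Egr UMI. That list includes Irf8, and its part in the results of those members was not tested. The T lineage and innate-like T lists were left out of the next count. At least 3 UMIs of any other of these lists were found in 10 members (9.71%) and 38 comparison cells (4.30%). Without these cells Dusp2 was at 1.41 and the other TCR-induced genes at 0.25. As the sets are pools of cells, more cells with a transcript and more RNA per cell are both contained in a summed level.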

How the data were processed

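Single-cell libraries of sorted spleen T cells, 1 of Tconv and 1 of Treg cells, were deposited as a table of whole-number UMI counts for 23725 genes, with cells grouped by their titles. Per the submitters' processing notes, TopHat2, SAMtools and mm10 were used; no source used here gives the annotation, the UMI counter or the cell filter. Linear amplification and a median of 18.7 mapped reads per UMI, per the labels, leave reads collapsed to UMIs, so levels are not per length.

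The members and gene lists were chosen with earlier results of these data known. Counts were summed over cells and given as CPM of UMIs outside the 10 rule genes. Ratios of genes with at least 50 UMIs have exact conditional Poisson intervals (95%), shares Clopper-Pearson intervals, and genes at 0 a floor of 3 counts over the set. With 1 library per group no test was made. The members were 103 cells, against 883, with 116 genes at least 2-fold higher and 292 lower. Foxp3 had 558 UMIs in the Treg library and 6 in the Tconv library. Library totals were 2002752 UMIs for Tconv and 1468203 for Treg.

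Named genes were the 14 highest and 10 lowest by the interval bound nearest 0, up to 4 per list (2 for other cell types), and Foxp3. The 14 highest needed UMIs in at least 5 members and the 10 lowest in at least 10 comparison cells. Ptpn22, Themis, Slc7a1, Rtp4, Dusp10, Ptger4, Orai1, Junb, Jund, Fos, Klf2, H2-Eb1, Ms4a1, Lyz2, Csf1r and the genes named under 50 UMIs are outside that rule and were chosen after their values were seen. Scrublet (in scanpy 1.11.5) marked 12 Tconv cells as doublets, 2 of them members, which were kept except in an alternative.

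Alternatives covered thinning to 1000 UMIs, depth, the rule's threshold and genes, totals, filters on genes and cells, and TMM (edgeR 4.0.16, R 4.3.3). Scripts used numpy 2.4.6, pandas 2.3.3, scipy 1.17.1 and matplotlib 3.10.9 and were tested on simulated data. Promoter sequences are from RefSeq (GRCm38.p6), the assembly of mm10.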

Additional observations from a re-analysis of the deposited data

Results flagged for a closer look

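For 4 named genes the interval in Tconv members lay on one side of 0 and that of the same rule in the Treg library on the other. The difference between libraries was not tested, and each library is 1 sample. Nolc1 was at a log2 ratio of 1.46 in Tconv members and -1.12 in Treg cells, with 30 and 8 UMIs in the cells that met the rule. Snx12, a sorting nexin, was at 1.45 in Tconv and -1.10 in Treg. Pdlim1 was at 0.64 in Tconv and -1.12 in Treg. Trim44 had no UMI in Tconv members, a log2 ratio of at most -1.32, and was at 1.15 in Treg on 46 UMIs, under the minimum of 50.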

How the results depend on the processing

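Over 31 alternative settings, 88.7% of the summed list ratios and 93.4% of the named gene ratios stayed within the counting interval of the value reported. Both shares include settings that could not move these ratios. The minimum of UMIs per gene and the 1.5-fold limit change only the counts of genes. Leaving Nr4a3 or Egr3 out of the rule kept the same cells. Dusp2 ranged over log2 ratios of 0.81 to 2.71 and the other TCR-induced genes over 0.13 to 0.84, above 0 in every setting run. The shares of tested genes past 2-fold, 2.69% higher and 6.76% lower as reported, depended on the setting. Cells thinned to 1000 UMIs gave 2.32% higher, TMM factors 1.64% higher and cells with at least 1500 UMIs 5.93% lower. A minimum of 20 UMIs per gene gave 6.31% higher and 10.997% lower, 100 UMIs 1.10% and 3.05%, no minimum 14.9% and 9.27%, and a 1.5-fold limit 11.98% and 16.2%. The rule on thinned counts gave 11.1% lower, with 6.66% of cells as members, and at least 3 rule-gene UMIs 4.52% higher, with 6.11% of cells. At least 2 different rule genes gave 8.93% higher, 15.9% lower, 0.84 for the other TCR-induced genes and 2.83% of cells. The rule without Myc gave 6.61%, 12.3%, 0.70 and 4.29%.

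The next 3 settings, and one without the deepest member, were chosen after seeing the data. Members with an Nr4a or Egr UMI gave 10.4%, 14.4%, 0.83 and 2.19%, and members other than those with Myc alone 5.65%, 10.7%, 0.65 and 4.93%. Cells with a UMI in place of UMIs gave 0.919% higher, 4.01% lower and 0.13.

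Signs were opposite for the proliferation list (-0.080 thinned, -0.148 with the rule on thinned counts, -0.109 by cells with a UMI, -0.019 with an Nr4a or Egr UMI) and for glycolysis without cells with markers of other types (-0.00899). With at least 2 different rule genes Pdlim1 was at -0.20 and Pgam5 at -1.32. With an Nr4a or Egr UMI Pgam5 was at -0.98, Cct8 at -0.20, Eif5a at -0.38, Trmt6 at -0.48 and Igfbp4 at -0.22. Igfbp4 was at -0.18 without Myc in the rule and -0.11 without members with Myc alone, and S100a6 at -0.61 without cells above 2 times the median UMIs. The cause was not tested. Depth limits genes with few UMIs. No paired analysis was possible because each group is 1 library.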
